A study of Mus musculus with 47 samples.

Results

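The genes described here are the nuclear-encoded subunits of the mitochondrial respiratory chain and ATP synthase in mice fed a methionine-restricted (MR) or a control (CON) diet. They were chosen by symbol, as all genes named Ndufa, Ndufb, Ndufc, Ndufs or Ndufv with a number, Sdha to Sdhd, Uqcr, Cox4 to Cox8 or Atp5, without Cox8b and Cox7a1, that had at least 20 tags in a tissue's count table. Of 83 such symbols, 72 passed in at least 1 tissue, of 26608 genes in each table, and 71 passed in all 4 tissues. Male C57BL/6J mice began one of the diets at 5 weeks of age, stayed on it for 11 weeks at a housing temperature of 23 C, and were fasted for 5 h before the tissues were taken. The 12 animals, 6 on each diet, gave 47 libraries in 8 groups. The tissues were the inguinal depot of white fat (IWAT), the brown fat between the shoulder blades (BAT), the liver and the gastrocnemius muscle of the calf. Each group held 6 libraries, 1 per animal, except MR gastrocnemius, which held 5 where animal MR3113 has no library. The labels give 1 inbred strain and 1 sex for all mice, and name no engineered allele or drug in any group.

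The electron transport chain passes electrons from NADH and succinate to oxygen and pumps protons out of the mitochondrial matrix, and ATP synthase uses their return to make ATP. Complex I oxidizes NADH, complex II oxidizes succinate, complex III passes electrons to cytochrome c, complex IV reduces oxygen, and complex V is the ATP synthase. Most subunits are encoded in the nucleus and a few in mitochondrial DNA, and both sets are needed for the complexes to assemble. Brown and beige adipocytes carry many mitochondria and express UCP1, an inner-membrane protein that lets protons back in without ATP synthesis.

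Each library counted 3′ tags (SOLiD SAGE), 1 tag from each captured transcript, so a gene's count is not divided by its length. Totals ran from 4887004 to 7094761 tags in IWAT, from 5252688 to 13117537 in BAT, from 7710740 to 12130444 in liver and from 7756320 to 12829112 in gastrocnemius. A count of 3 tags corresponds to between 0.229 and 0.614 CPM, the tag count scaled to a common library size (with edgeR's TMM factors wherever the diets are compared). Markers of each tissue were present: the summed level of 6 adipocyte genes in IWAT was 28707 to 99337 CPM in MR and 25539 to 120300 CPM in CON libraries, and that of 6 hepatocyte genes in liver was 79110 to 178842 CPM in MR and 136895 to 249491 CPM in CON. The 4 libraries with a median rank correlation under 0.8 to the others of their tissue were IWAT MR3116 (0.647), IWAT CON3106 (0.628), IWAT CON3115 (0.719) and gastrocnemius MR3101 (0.582). The other IWAT libraries had values of 0.857 to 0.914, and the main IWAT and gastrocnemius values below are given with and without these libraries.

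The tag predicted for a gene is the 23 bases after the CATG site nearest the 3′ end that the enzyme NlaIII cuts. Which tags make up each gene's count was not tested. The tags predicted from the transcripts of NCBIM37 (GENCODE vM1) are shown for Uqcrc2 and Atp5b, whose MR and CON libraries did not overlap in IWAT, and for the 3 genes of subunit c of ATP synthase, with CATG in capitals.
Uqcrc2: CATGcgtgtatttaaagctcagcccag
Atp5b: CATGcaggccacacaagagccttgatt
Atp5g1: CATGccagtcctggtgctggagtctac
Atp5g2: CATGgttctttcgtgtctcgtctgccc
Atp5g3: CATGgaaatatatgttatttccacagt
The tags of Uqcrc2, Atp5b and Atp5g3 occurred at 1 place in that genome, and those of Atp5g1 and Atp5g2 at 4 places each. Atp5g2 had 0 tags in all 47 libraries, as had Atp5j, Atp5l, Cox5b, Cox7c, Ndufb4, Ndufc2 and Ndufs5. Of these 8 symbols, 5 had a predicted tag at more than 1 place, and so had 13 of the 72 genes that passed. The other 3 (Cox5b, Ndufb4 and Ndufc2) had 1 place. The reason for the 0 was not tested for any of the 8. No level is read from a 0 in these 8 genes. Cox7a2, Cox7b2 and Cox8c stayed under 20 tags everywhere, and none of the 13 mitochondrially encoded subunits is listed in the tables. Cox4nb, Atp5s and Atp5sl match the symbols but encode no subunit of a complex (Cox4nb is a member of the endoplasmic reticulum membrane complex). They were left out of the values by complex and are included in those over all members. The other genes were placed by symbol alone, Nduf in complex I, Sdh in II, Uqcr in III, Cox in IV and Atp5 in V. Ndufa4 and Ndufa4l2 are thus counted with complex I and Cox7a2l with complex IV, whatever complex their proteins join.

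Brown fat held the most of these tags and liver the least. Members made up 9.90 ± 1.85% of all tags in MR BAT and 10.01 ± 1.02% in CON BAT (SD, n = 6 each). In gastrocnemius they made up 6.39 ± 1.78% in MR (n = 5) and 5.80 ± 0.59% in CON (n = 6), and without MR3101 the MR mean was 5.60 ± 0.23% (n = 4), below that of CON. In liver they made up 2.68 ± 0.17% in MR and 2.59 ± 0.06% in CON (n = 6 each). IWAT was the tissue where the diets stood apart: MR libraries held 6.03% at the lowest, 7.08% at the median and 8.54% at the highest, against 3.32%, 3.59% and 5.49% in CON libraries. The IWAT groups did not overlap, and their means were 7.20 ± 0.86% in MR and 3.88 ± 0.82% in CON (SD, n = 6 each), a ratio of 1.85. All 5 complexes had a higher mean share in MR IWAT, with ratios of 1.74 for complex I, 1.83 for complex II, 2.05 for complex III, 1.96 for complex IV and 1.75 for complex V. Without MR3116, CON3106 and CON3115 the means were 6.93 ± 0.63% in MR (n = 5) and 4.03 ± 1.01% in CON (n = 4), a ratio of 1.72, and the ratios of the complexes lay between 1.62 and 1.90. Because each library is from a whole tissue, more cells of a mitochondria-rich type and more of these transcripts per cell cannot be told apart.

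**Figure D1:**
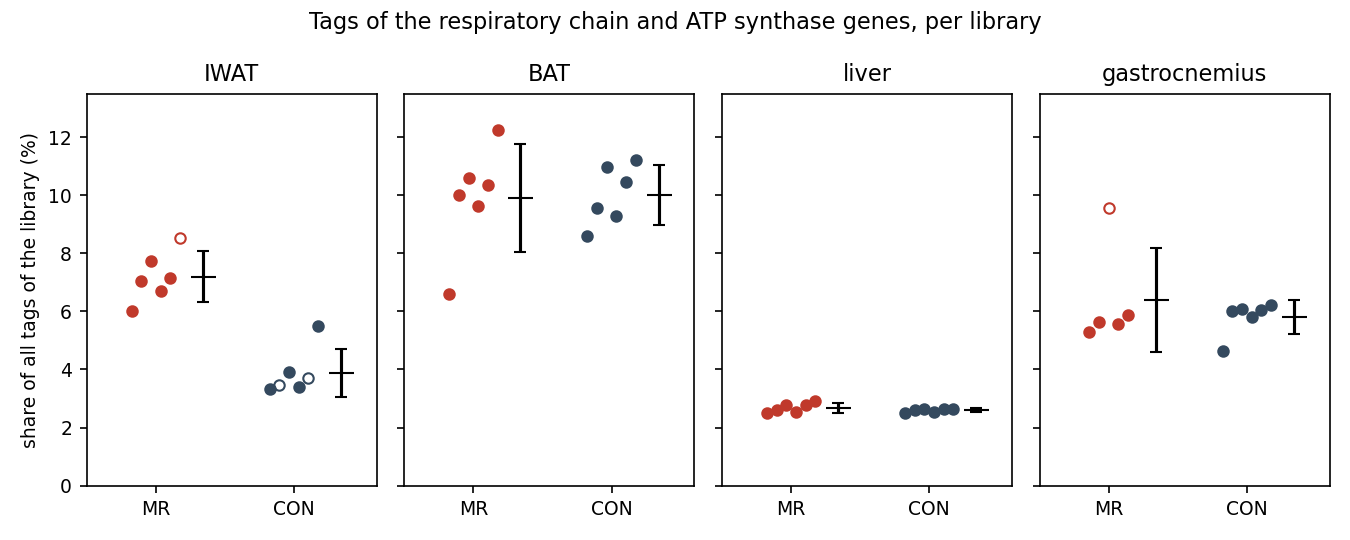
Share of all tags held by the respiratory chain and ATP synthase genes (y axis, percent) in each library, MR left of CON, in IWAT, BAT, liver and gastrocnemius. Points are libraries, open circles are the 4 libraries with low rank correlation, and bars are the mean ± SD; the 6 MR libraries of IWAT sit between 6.03% and 8.54%, above the CON libraries at 3.32% to 5.49%.

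Within each tissue a few genes gave a large part of the tags. The 5 genes with most tags held 40.9% of members' tags in CON IWAT and 35.0% in CON liver. On the scale of CPM of all tags in the library, Atp5b, the catalytic beta subunit of ATP synthase, had 12187 CPM in CON BAT, 6702 in CON gastrocnemius, 4434 in CON IWAT and 2100 in CON liver. Cox4i1, the common form of subunit 4 of complex IV, had the same order of tissues, with 8614, 4323, 3001 and 1494 CPM. Some subunits gave few tags in every tissue: Atp5e, the epsilon subunit of ATP synthase, had 2.5 CPM in CON IWAT and 11.6 in CON BAT, and Cox6b1 had 1.1 and 4.6. How well each tag is captured was not tested, and the diets are compared gene by gene below.

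In IWAT nearly all subunit genes of every complex had higher values under methionine restriction, and none passed the threshold alone in the tissue's own test. Of 68 members tested, 64 had a log2 fold change (MR over CON) above 0, while 48.5% of all 11101 genes tested did. The members' median log2 fold change was 0.89, beside -0.02 over all genes. With edgeR's quasi-likelihood test and Benjamini-Hochberg adjustment over all genes, 0 of 68 members passed 0.05, and 0.027% of all genes did (3 genes). At an unadjusted p under 0.05 there were 28 members higher and 1 lower, against 3.94% and 4.85% of all genes. DESeq2 called 11 members, all higher (2.79% of all genes), and limma's voom called 0 (its share of all genes is not given here). A term for the 3 libraries that stood apart gave 15 calls with edgeR, 14 higher and Atp5g1 lower (5.59% of all genes). Without MR3116, CON3106 and CON3115 edgeR again called 0 members (0% of 11624 genes), 63 of 68 had a log2 fold change above 0, the median was 0.76, and 41 were higher and 1 lower at an unadjusted p under 0.05, where 7.1% of all genes were higher.

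**Figure D2:**
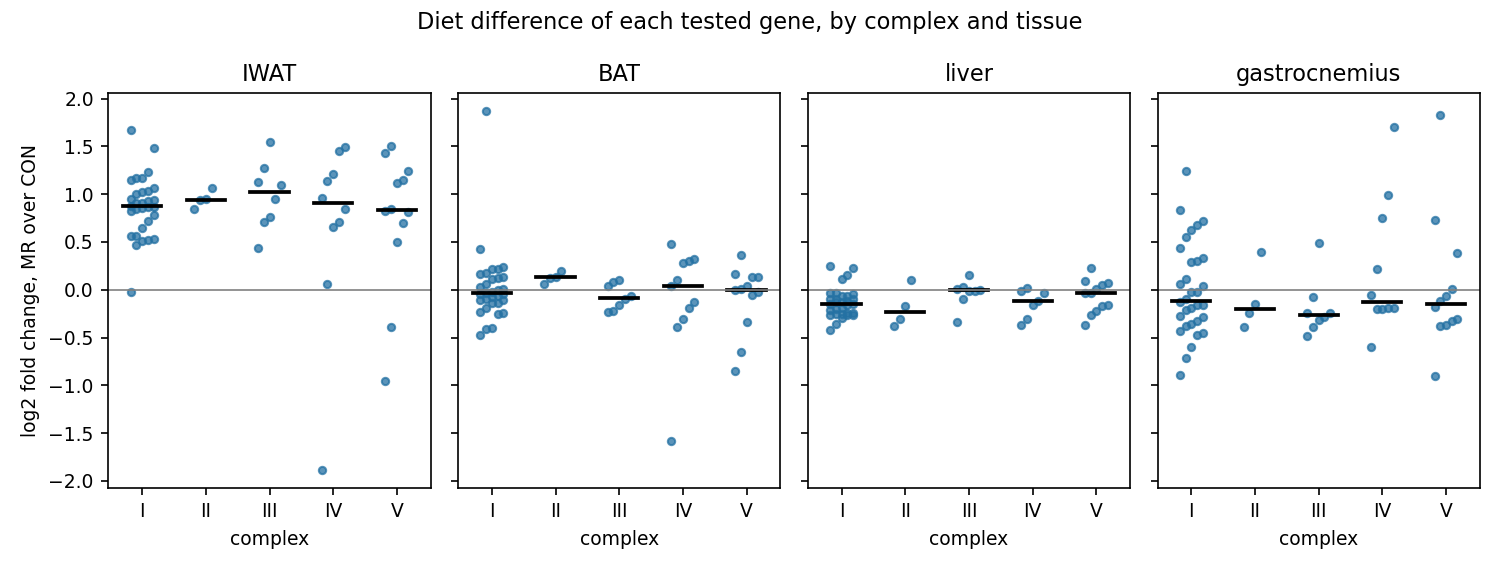
Log2 fold change (MR over CON, y axis) of each tested gene, grouped by complex on the x axis, in the 4 tissues, with a black line at the median of each complex. In IWAT the medians lie between 0.84 and 1.02, and in BAT, liver and gastrocnemius they lie between -0.26 and 0.13. In liver 17 of 65 tested members, with Cox4nb, Atp5s and Atp5sl counted, lie above 0, and 44 of 65 when libraries are scaled by total tags alone.

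Complex I is the largest complex, and 30 of the 31 tested genes with Nduf symbols had higher values in MR IWAT (median log2 fold change 0.88). At an unadjusted edgeR p under 0.05, 12 were higher and 0 lower, against 3.94% and 4.85% of all genes. Ndufa5, an accessory subunit and the complex I gene with the smallest p, had 377 CPM at the lowest, 486 at the median and 609 at the highest in MR, against 160, 267 and 380 CPM in CON. The ranges touched only at their ends, with a log2 fold change of 0.83 ± 0.26 (SE) and an edgeR adjusted p of 0.260 (0.81 ± 0.23 and 0.136 without the 3 libraries that stood apart). Ndufa10 (chr1:92439486-92473825, GRCm38.p6), an accessory subunit of the matrix side of the membrane arm, had 453 CPM at the lowest, 1062 at the median and 1663 at the highest in MR, against 180, 419 and 925 CPM in CON. Its lowest MR library was MR3116 and its highest CON library was CON3114, and the log2 fold change was 1.23 ± 0.40 (edgeR adjusted p = 0.292), or 1.08 ± 0.32 without the 3 (adjusted p = 0.140). The subunits that carry the flavin and the iron-sulfur clusters include Ndufv1 and Ndufs1. A wide spread was not theirs alone, as the accessory subunit Ndufb10 had a log2 fold change of 1.07 ± 0.81. Ndufv1, which binds NADH, had 0.757 CPM in MR3116 and 46.5 to 82.6 CPM in the other MR libraries, against 0 and 1.62 CPM in CON3106 and CON3115 and 15.6 to 32.8 CPM in the other CON libraries. Without these 3 libraries, a choice made after seeing the data, its groups of 5 MR and 4 CON libraries do not overlap. The share of all genes without overlap in that setting is not given here. The log2 fold change was then 1.35 ± 0.28 (edgeR adjusted p = 0.0744), beside 1.67 ± 0.99 (adjusted p = 0.777) with all libraries. Ndufs1, the largest core subunit, had 12.1 to 30.8 CPM in MR and 3.598 to 14.7 CPM in CON, with a log2 fold change of 0.72 ± 0.41 (edgeR adjusted p = 0.748), or 0.57 ± 0.44 without the 3.

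Complex II is also an enzyme of the citric acid cycle, and its 4 genes all had higher values in MR IWAT (median 0.94). Sdha (chr13:74322255-74350240), the flavoprotein that oxidizes succinate, had 1341 CPM at the lowest, 1664 at the median and 3877 at the highest in MR, against 439, 1215 and 1513 CPM in CON. The highest MR library was MR3116 and the groups overlapped (0.95 ± 0.38, edgeR adjusted p = 0.447, or 0.88 ± 0.35 and 0.250 without the 3 libraries). Sdhb, the iron-sulfur subunit, had 62.8, 101 and 140 CPM in MR as lowest, median and highest, against 27.2, 34.5 and 137 CPM in CON. One CON library, CON3103, lay at 137 CPM while the other 5 lay at 63.4 CPM or below. Sdhc, a membrane anchor, was almost absent from the libraries that stood apart, with 1.01 CPM in MR3116 and 236 to 334 CPM in the other MR libraries, against 2.16 and 2.54 CPM in CON3106 and CON3115 and 112 to 243 CPM in the other CON libraries.

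Complex III had the highest median in IWAT, 1.02, and all 8 of its genes had higher values in MR. Uqcr11 (chr10:80402997-80406821), a small accessory subunit, had 2040 CPM at the lowest, 3141 at the median and 4418 at the highest in MR, against 982, 1350 and 2131 CPM in CON. CON3114 was the single CON library above the lowest MR library, and the log2 fold change was 1.13 ± 0.27 (edgeR adjusted p = 0.156), or 1.08 ± 0.29 without the 3 libraries (adjusted p = 0.117). Uqcrc2 (chr7:120635189-120659523), one of the large core proteins, had 189, 206 and 483 CPM in MR as lowest, median and highest, against 53.1, 139 and 174 CPM in CON. Its groups did not overlap, and MR lay above CON throughout as for 0.757% of all genes, with a log2 fold change of 1.09 ± 0.38 (edgeR adjusted p = 0.336), or 0.98 ± 0.38 without the 3 (adjusted p = 0.233). Uqcrc1, the other core protein, and Uqcrfs1, the Rieske iron-sulfur protein, were lowest in MR3116 among MR libraries, and had log2 fold changes of 1.55 ± 0.83 and 1.27 ± 0.73 with all libraries and of 1.24 ± 0.33 and 1.01 ± 0.29 without the 3 (edgeR adjusted p = 0.118 and 0.133).

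Complex IV had higher values in MR IWAT for 9 of 10 tested genes (median 0.90). Cox4i1 (chr8:120668225-120674209) had 4160 CPM at the lowest, 6441 at the median and 9073 at the highest in MR, against 1869, 2656 and 4344 CPM in CON. Only CON3114 lay above the lowest MR library (1.13 ± 0.30, edgeR adjusted p = 0.170, or 1.02 ± 0.32 and 0.158 without the 3 libraries). Cox5a (chr9:57517328-57532427), a nuclear-encoded subunit on the matrix side, had 2266, 3809 and 10647 CPM in MR as lowest, median and highest, against 928, 1527 and 2647 CPM in CON. The highest value was that of MR3116, and the log2 fold change was 1.45 ± 0.44 (edgeR adjusted p = 0.251), or 1.25 ± 0.38 without the 3 (adjusted p = 0.152). Cox8a, the common form of subunit 8, had 3577, 4162 and 5651 CPM in MR, against 2083, 2711 and 4439 CPM in CON, where CON3114 was the highest. Cox6a2, the heart and skeletal muscle form of subunit 6a, was the exception, with 0 to 7.53 CPM in MR and 0 to 30.9 CPM in CON and a log2 fold change of -1.88 ± 1.41 (edgeR adjusted p = 0.906), or -2.23 ± 1.19 without the 3. MR3102, the highest MR library for Cox6a2, had a summed level of 398 CPM over 8 skeletal muscle markers, and CON3114 and CON3112, the highest CON libraries at 30.9 and 10.6 CPM, had 1466 and 351 CPM. Muscle markers were at or below 109 CPM in the other IWAT libraries. CON3107 was among these, with 66 tags of Cox6a2, beside 64 in CON3112 and 51 in MR3102. The part of the muscle markers in the Cox6a2 values was not tested.

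Complex V had 10 of 12 tested genes with higher values in MR IWAT (median 0.84), and it held both the member with the smallest p among those with higher values and the one with the smallest p among those with lower values. Atp5b (chr10:128083307-128090388) had 6028 CPM at the lowest, 10516 at the median and 13014 at the highest in MR, against 3306, 4379 and 5797 CPM in CON. Every MR library lay above every CON library, with means of 10154 ± 2776 CPM in MR and 4306 ± 921 CPM in CON (SD, n = 6 each). The log2 fold change was 1.24 ± 0.29 with an edgeR adjusted p of 0.144, the smallest of all members in IWAT, and without the 3 libraries they were 1.17 ± 0.33 and 0.135. Atp5a1, the alpha subunit that alternates with beta in the catalytic ring, had 975 to 1294 CPM in 5 MR libraries and 10340.5 CPM in MR3116, against 373 to 948 CPM in 5 CON libraries and 2514 CPM in CON3106, with a log2 fold change of 1.43 ± 0.72, or 0.81 ± 0.31 without the 3. Atp5e had 4.03, 5.43 and 10.3 CPM in MR as lowest, median and highest, against 1.08, 1.97 and 4.19 CPM in CON (1.502 ± 0.42, edgeR adjusted p = 0.186, or 1.32 ± 0.40 and 0.150 without the 3). Subunit c forms the rotating ring of the membrane part and is encoded by 3 genes with the same mature protein. Atp5g1 (chr11:96072793-96075694) went the other way from most members, with 21.4, 63.9 and 77.1 CPM in MR as lowest, median and highest, against 60.9, 104 and 179 CPM in CON. The groups overlapped through CON3106, and the log2 fold change was -0.95 ± 0.34 (edgeR adjusted p = 0.346), or -1.01 ± 0.23 without the 3 libraries (adjusted p = 0.0845). Atp5g3, the subunit c gene with more tags, had 823 to 3890 CPM in MR and 855 to 4241 CPM in CON (-0.39 ± 0.50, or -0.16 ± 0.26 without the 3), and Atp5g1 made up 4.96 ± 2.90% of the tags of the pair in MR and 7.11 ± 4.21% in CON (SD, n = 6 each). The predicted tag of Atp5g1 occurs at several places in the genome, while only uniquely placed fragments were counted. Which tags make up the Atp5g1 counts was not tested, so its values carry that limit.

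**Figure D3:**
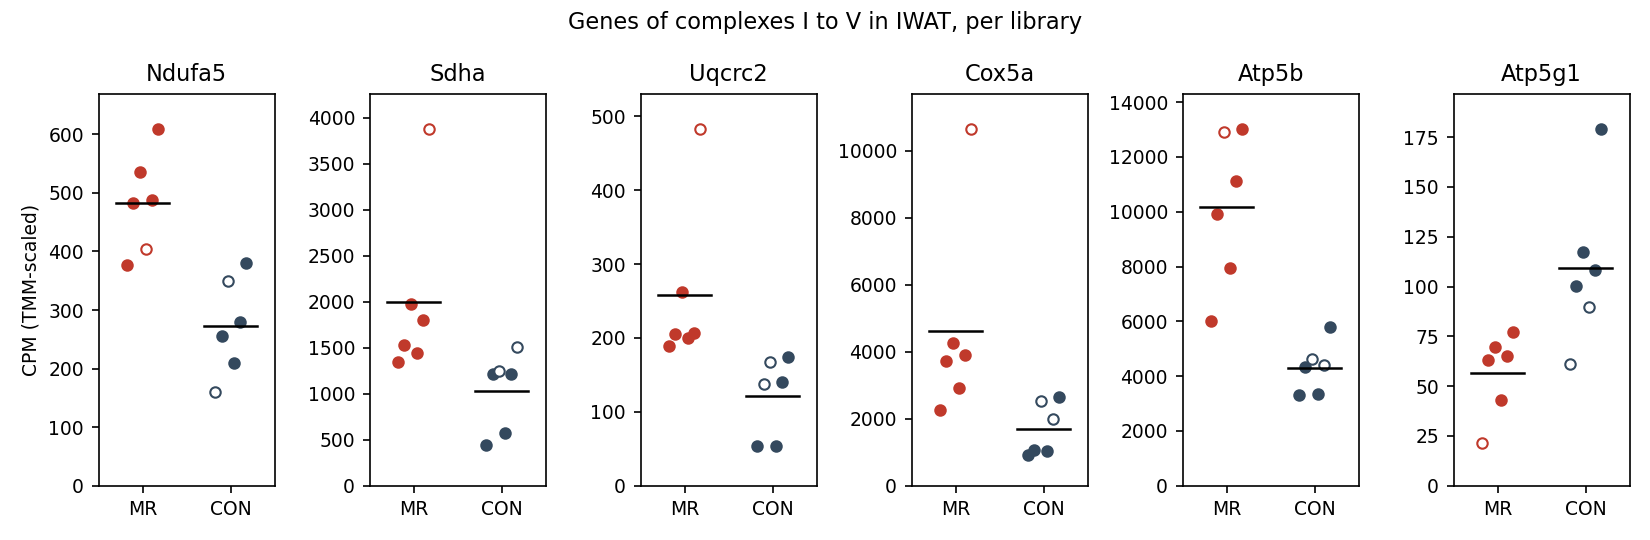
CPM in each IWAT library (y axis, linear) of Ndufa5, Sdha, Uqcrc2, Cox5a, Atp5b and Atp5g1, MR left of CON, with a line at each group mean and open circles for the libraries that stood apart. Atp5b lies between 6028 and 13014 CPM in MR and between 3306 and 5797 CPM in CON, and Atp5g1 is the one of the 6 with lower values in MR.

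Most MR libraries took part in the shift. MR3116 had 33 of the 68 tested members above the CON mean, and each of the other MR libraries had 62 to 65. Among CON libraries, CON3114 had 59 members above the CON mean and the other 5 had 14 to 46. The shares of all genes above the CON mean in these libraries are not given here. The summed level of 9 brown or beige markers was 1773 to 4673 CPM in MR libraries, against 1321 CPM in CON3114 and 137 to 639 CPM in the other 5 CON libraries. The part of these cells in the member values of CON3114 was not tested.

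**Figure D4:**
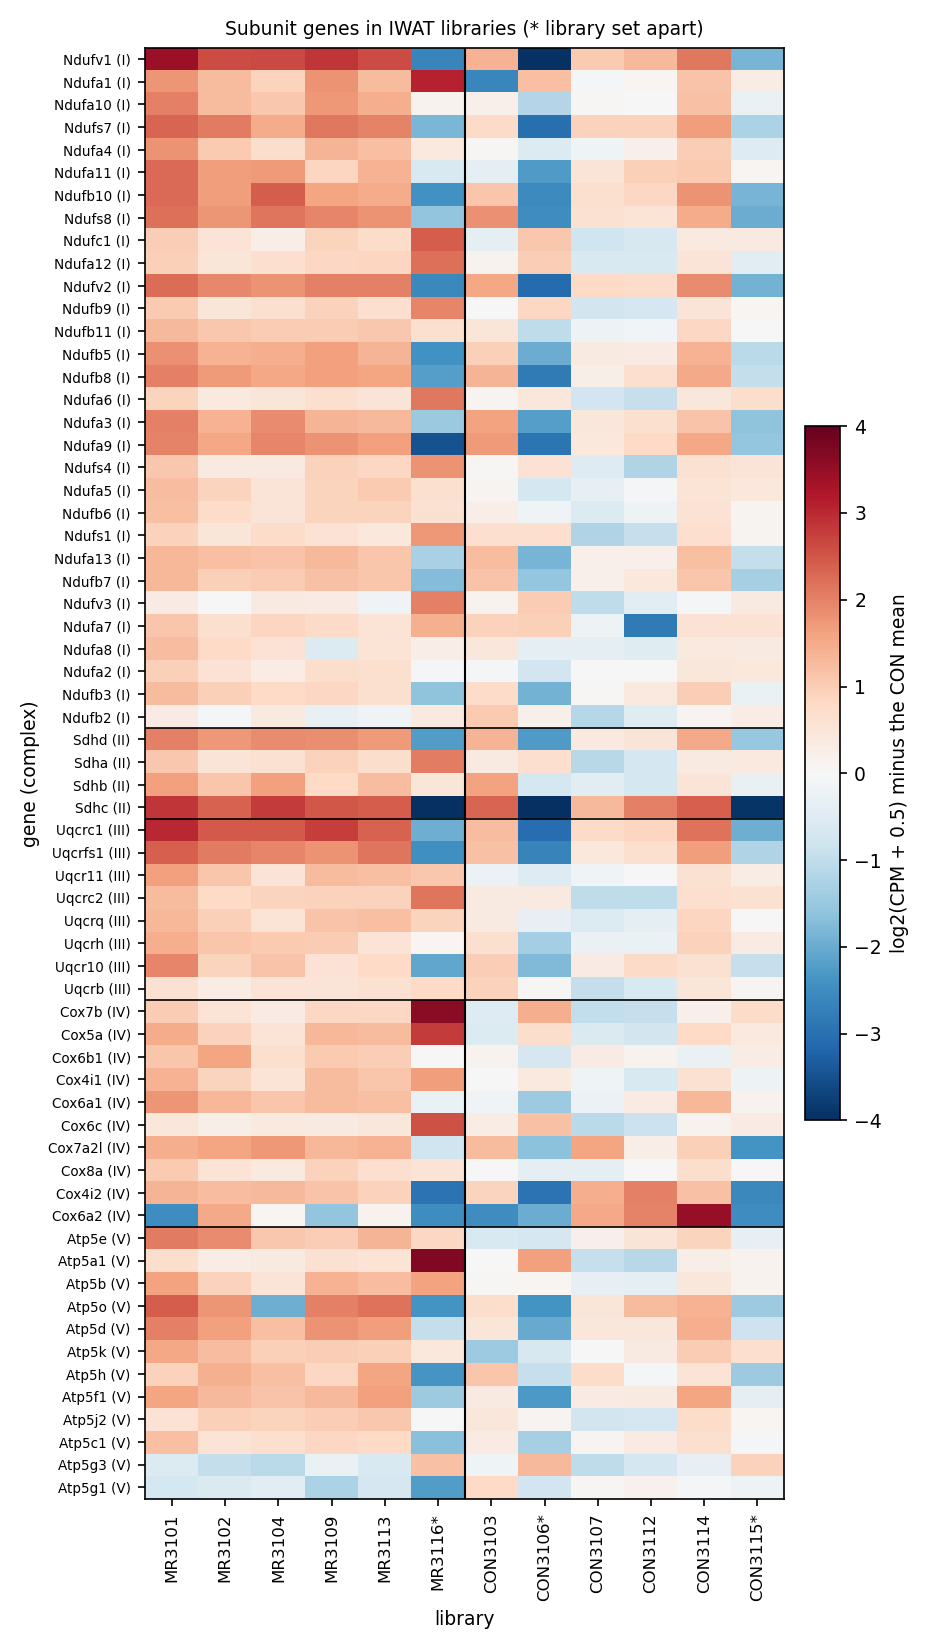
Heat map of 64 subunit genes (rows, by complex) in the 12 IWAT libraries (columns, MR left of CON), where the colour is log2(CPM + 0.5) minus the mean of the CON libraries and the scale ends at 4 in either direction. Asterisks mark MR3116, CON3106 and CON3115, whose columns hold both the highest and the lowest values. Counted against the mean CPM of CON, not the log2 mean of the colours, the other 5 MR libraries were higher for 62 to 65 of all 68 tested members. The same shares over all genes are not given here.

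Markers of thermogenic fat stood in the same libraries beside these values. All 8 tested brown or beige markers had higher values in MR IWAT, with a median log2 fold change of 2.23, and 0 passed the edgeR threshold. Ucp1 had 1066 to 2386 CPM in MR, against 22.6 to 536 CPM in CON, with no overlap (3.15 ± 0.64, edgeR adjusted p = 0.107). The 6 matrix genes of fibroblasts had the opposite sign, with 0 of 6 higher, a median of -1.49, and summed levels of 1006 to 2813 CPM in MR and 2094 to 8717 CPM in CON. The part of a changed mix of cells in the subunit values was not tested.

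Subunits and carriers that the symbol rule leaves out had the same sign as most members in IWAT, with 6 of 7 tested genes higher and 0 past the edgeR threshold. Cox8b and Cox7a1, the forms of subunits 8 and 7a found in brown fat and muscle, had log2 fold changes of 2.23 ± 0.37 (adjusted p = 0.0543) and 2.30 ± 0.59 (adjusted p = 0.166). Ndufab1, the acyl carrier subunit of complex I, had 17.4 ± 4.25 CPM in MR and 6.51 ± 2.65 CPM in CON (SD, n = 6 each), and Cycs, cytochrome c itself, had a log2 fold change of 1.36 ± 0.49. Libraries that stood apart held the highest Cycs value of each diet. MR3116 had 14277.5 CPM, beside 3098 to 4972 CPM in the other MR libraries. CON3106 had 4168 CPM, beside 972 to 2797 CPM in the other CON libraries. Among all genes tested in IWAT, 48.5% had a log2 fold change above 0, and 3.94% were higher at an unadjusted edgeR p under 0.05. Of 27 tested assembly factors, which build the complexes without staying in them, 25 had higher values in MR IWAT, 5 at an unadjusted p under 0.05 and 0 past the adjusted threshold, with a median of 0.50. The smallest p values were those of Ecsit (0.85 ± 0.22), Lyrm7 (1.49 ± 0.39), Foxred1 (0.99 ± 0.33) and Ndufaf4 (0.99 ± 0.37), which are needed for complex I except Lyrm7, which serves complex III. Of 15 tested regulators of mitochondrial genes, 12 had higher values, 7 at an unadjusted p under 0.05 and 0 past the adjusted threshold (median 0.78). Gabpa, the DNA-binding subunit of nuclear respiratory factor 2, had 52.6 ± 4.16 CPM in MR and 30.6 ± 4.68 CPM in CON (0.78 ± 0.19, adjusted p = 0.158), and Ppargc1a, the coactivator PGC-1alpha, had 29.7 ± 10.1 CPM in MR and 12.5 ± 4.63 CPM in CON (1.25 ± 0.34, adjusted p = 0.177). Tfb2m, a mitochondrial transcription factor, and Esrra, estrogen-related receptor alpha, had log2 fold changes of 0.81 ± 0.23 and 1.43 ± 0.44 (adjusted p = 0.187 and 0.246).

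The start regions of the members' genes were read for motifs of factors known to act on mitochondrial genes. RefSeq start windows on GRCm38.p6, from 250 bases before to 50 after the start, were available for 57 of the 72 members (62 windows). On either strand, the NRF1 motif (GCGCA and GCGC with 1 base of any kind between them) was in 15 windows (24.2%, against 4.6% of all 32851 windows), CCGGAAG (ETS factors, GABPA among them) in 14 (22.6% against 8.86%), and AAGATGGCG (YY1) in 8 (12.9% against 1.4%). The long estrogen-related receptor motif TCAAGGTCA was in 2 windows (3.23% against 0.423%) and its shorter form AAGGTCA, which the long one contains, in 5 (8.06% against 4.72%). A match shows only that the letters are present. The windows are the same whatever the tissue, and their part in the IWAT values was not tested. One window per complex is shown, the one that holds the most of these motifs with ties settled by the smaller p in IWAT, with each match in capitals: Ndufs6 of complex I (chr13:73328433-73328732, minus strand), Sdhd of complex II (chr9:50603800-50604099, minus), Uqcr11 of complex III (chr10:80406772-80407071, minus), Cox6a1 of complex IV (chr5:115348909-115349208, minus) and Atp5k of complex V (chr5:108434350-108434649, minus).
Ndufs6: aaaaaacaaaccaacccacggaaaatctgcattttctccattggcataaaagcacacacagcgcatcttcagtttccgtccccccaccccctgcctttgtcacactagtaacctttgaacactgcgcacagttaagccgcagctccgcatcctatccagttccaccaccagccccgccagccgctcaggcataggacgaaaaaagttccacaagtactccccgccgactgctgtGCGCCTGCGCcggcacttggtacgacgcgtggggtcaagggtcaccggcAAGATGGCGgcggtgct
Sdhd: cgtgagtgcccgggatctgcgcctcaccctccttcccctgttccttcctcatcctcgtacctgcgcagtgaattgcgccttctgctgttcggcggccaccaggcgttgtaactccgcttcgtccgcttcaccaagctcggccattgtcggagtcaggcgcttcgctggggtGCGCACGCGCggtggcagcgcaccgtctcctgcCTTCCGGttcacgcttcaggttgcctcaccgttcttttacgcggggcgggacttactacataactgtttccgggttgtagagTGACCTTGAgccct
Uqcr11: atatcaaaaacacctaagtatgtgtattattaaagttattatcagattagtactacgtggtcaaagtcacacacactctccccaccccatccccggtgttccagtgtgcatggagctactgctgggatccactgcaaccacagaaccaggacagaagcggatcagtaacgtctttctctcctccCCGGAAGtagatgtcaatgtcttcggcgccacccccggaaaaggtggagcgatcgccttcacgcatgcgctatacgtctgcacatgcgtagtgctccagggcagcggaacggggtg
Cox6a1: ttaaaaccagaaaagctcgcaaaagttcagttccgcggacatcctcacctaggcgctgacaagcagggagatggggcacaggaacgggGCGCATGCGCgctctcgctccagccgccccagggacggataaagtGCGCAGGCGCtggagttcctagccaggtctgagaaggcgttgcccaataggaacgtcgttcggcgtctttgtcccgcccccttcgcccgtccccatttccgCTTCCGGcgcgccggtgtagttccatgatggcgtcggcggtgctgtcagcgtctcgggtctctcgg
Atp5k: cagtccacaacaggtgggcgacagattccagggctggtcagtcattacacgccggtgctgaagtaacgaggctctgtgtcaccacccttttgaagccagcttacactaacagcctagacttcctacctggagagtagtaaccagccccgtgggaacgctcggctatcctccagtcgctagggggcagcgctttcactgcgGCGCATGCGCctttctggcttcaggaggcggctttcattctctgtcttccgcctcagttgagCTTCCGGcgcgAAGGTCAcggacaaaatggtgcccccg
Ndufs6 has no IWAT test, with 5 tags over the 12 libraries. Cox6a1, whose window holds the NRF1 motif at 2 places, had 527, 1507 and 2191 CPM in MR IWAT as lowest, median and highest, against 234, 637 and 1615 CPM in CON. Atp5k had 221 to 491 CPM in MR IWAT and 60.9 to 339 CPM in CON.

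In BAT, where these genes were most abundant, members lay evenly about 0. Of 70 members tested, 36 had a log2 fold change above 0, beside 50.2% of all genes, and the median was 0.00. None passed the edgeR threshold, against 1.11% of all genes, and 1 was higher and 1 lower at an unadjusted p under 0.05, against 7.26% and 6.32%. DESeq2 and voom also called 0 members (their shares of all genes are not given here). Atp5b had a log2 fold change of 0.16 ± 0.20 there (edgeR adjusted p = 0.786). Ndufs4, an accessory subunit of complex I needed for a stable NADH-oxidizing module, had 716, 1088 and 1503 CPM in MR BAT as lowest, median and highest, against 1281, 1485 and 1970 CPM in CON (-0.47 ± 0.20, edgeR adjusted p = 0.317). Ndufa4l2, a hypoxia-inducible relative of Ndufa4, had 31.3 CPM in MR3116 and at most 2.57 CPM in any CON library, so its log2 fold change of 1.87 ± 0.83 rests on 1 library. In the same BAT libraries 9 of 9 brown markers had higher values in MR (median log2 fold change 0.85), and Elovl3 (1.43 ± 0.25, edgeR adjusted p = 0.0131), Dio2 (1.31 ± 0.25, 0.0226) and Kcnk3 (0.85 ± 0.18, 0.0414) passed the threshold. Muscle markers were uneven in BAT, with sums of 5602 CPM in MR3113, 14734 CPM in CON3112 and 7852 CPM in CON3114, and the same libraries had the highest Cox6a2, at 208, 709 and 404 CPM; their part in other members was not tested.

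In liver the differences were small, and most lay below 0. The median log2 fold change was -0.11 beside 0.01 over all genes, and 17 of 65 tested members lay above 0 (51.5% of all genes); with libraries scaled by their totals alone the sign turned, with 44 of 65 above 0 and a median of 0.08 where all genes had 0.19. None passed the edgeR threshold, against 2.26% of all genes, and 6 were lower and 0 higher at an unadjusted p under 0.05, against 7.75% and 6.77%. DESeq2 called 3, all lower (Ndufa13, Sdha and Cox6c, with 4.47% of all genes called), and voom called 0 (its share is not given here). Ndufa13 (chr8:69894163-69902558), a complex I subunit also known as GRIM-19, had 346, 436 and 459 CPM in MR liver as lowest, median and highest, against 490, 538 and 615 CPM in CON. All MR libraries lay below all CON libraries, as for 1.29% of all genes, with a log2 fold change of -0.36 ± 0.10 and an edgeR adjusted p of 0.0670. Sdha had 439, 472 and 552 CPM in MR liver, against 527, 587 and 749 CPM in CON (-0.38 ± 0.11, adjusted p = 0.110), and Cox6c, a small complex IV subunit, had 1285, 1465 and 1638 CPM in MR, against 1584, 1854 and 2301 CPM in CON (-0.37 ± 0.12, adjusted p = 0.146). Uqcrb of complex III and Atp5a1 of complex V had the smallest p of their complexes, with log2 fold changes of -0.34 ± 0.14 and -0.22 ± 0.11 (adjusted p = 0.282 and 0.364).

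In gastrocnemius 1 library set most of the differences. Of 69 members tested, 24 lay above 0 with a median of -0.16 (all genes -0.04 and 46.4% above 0), and without MR3101 38 lay above 0 with a median of 0.01. None passed the edgeR threshold, where 0% of all genes did, and 2 were higher and 0 lower at an unadjusted p under 0.05, against 5.62% and 0.695%. DESeq2 and voom also called 0 members (their shares of all genes are not given here). The 2 with an unadjusted p under 0.05 were Cox6c and Atp5a1. Cox6c had 27151, 4332, 2838, 1876 and 2440 CPM in MR3101, MR3102, MR3104, MR3109 and MR3116, against 2232, 2381 and 2553 CPM as lowest, median and highest in CON. Atp5a1 had 15651, 1324, 1184, 923 and 1131 CPM in the same MR libraries, against 869, 1137 and 1516 CPM in CON. MR3101 alone lay outside the CON range by more than 2-fold for both genes. The same library had 12260 CPM summed over the muscle markers, where the other 10 had 64088 to 142127 CPM, and 3.52 CPM of Cox6a2, the muscle form, where the others had 753 to 1732 CPM. Its part in the gastrocnemius values was not tested beyond leaving it out.

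Some subunits have forms that differ between tissues. In gastrocnemius Cox6a2 made up 84.7 ± 26.4% of the tags of Cox6a1 and Cox6a2 together in MR (SD, n = 5), against 97.5 ± 1.25% in CON (n = 6). The low value was that of MR3101, 37.5% of 48 tags. Cox8a had 301 CPM of all tags in CON gastrocnemius and 5372 CPM in CON BAT, and Cox6a1 had 38.8 and 2478 CPM. Cox4i2, the lung form of subunit 4, stayed below 1% of the tags of Cox4i1 and Cox4i2 together in every library.

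The 4 libraries that stood apart did so in the same way for these genes. Set against the other libraries of their diet and tissue, members were more than 2-fold lower or higher for 69.1% of members in IWAT MR3116, 64.7% in CON3106, 38.2% in CON3115 and 78.3% in gastrocnemius MR3101, close to the 66.9%, 65.9%, 48.7% and 76.0% of all genes. Deviations of the same gene in the 4 libraries had Spearman correlations of 0.85 to 0.97 across members, as a description, and of 0.82 to 0.95 across all genes. Sdhc, Ndufv1, Ndufs7 and Ndufs8 were among 24 members more than 2-fold lower in all 4, and Cox7b and Atp5g3 were the 2 more than 2-fold higher. Sdhc was the lowest of the members in each IWAT library of the set, with log2 deviations of -7.69 in MR3116, -6.22 in CON3106 and -6.01 in CON3115. Across the 68 members of IWAT and 69 of gastrocnemius, as a description, the deviation had a Spearman correlation of -0.46 to -0.29 with the tag's distance from the 3′ end and of -0.37 to -0.28 with its GC content in the 4 libraries. The cause was not tested.

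**Figure D5:**
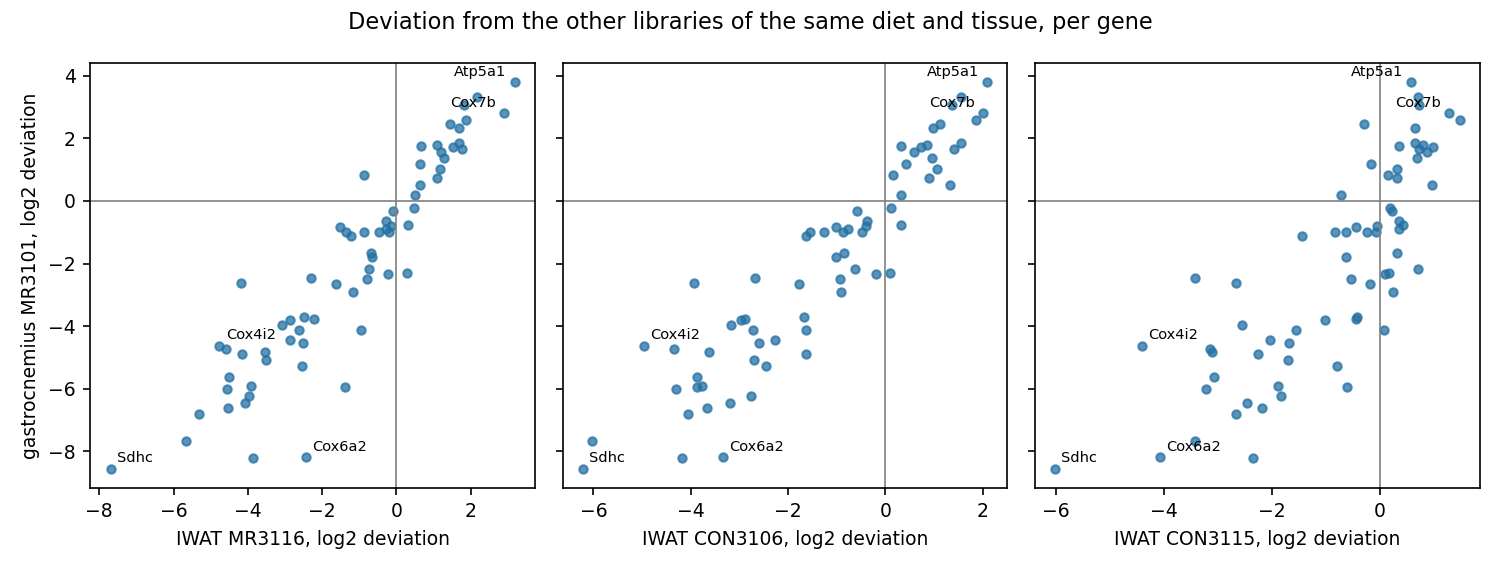
Log2 deviation of each member from the other libraries of its diet and tissue: gastrocnemius MR3101 on the y axis against IWAT MR3116, CON3106 and CON3115 on the x axes of the panels. Points lie along a rising line, with Sdhc at the low end (-8.55 in MR3101) and Cox7b (2.80) and Atp5g3 (2.58) near the high end.

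Whether the diet effect differed between tissues was tested in 1 model over all 47 libraries and 13541 genes, 71 of them members. The model shares 1 spread per gene over the 4 tissues, although replicates were less alike in IWAT than in liver (median rank correlations of 0.628 to 0.914 and of 0.962 to 0.972). Its p values therefore do not reflect the spread of IWAT or gastrocnemius alone. For Atp5b the SE of the difference given below, 0.39, is smaller than the 0.41 of gastrocnemius fitted alone. No member passed the test of any difference among the 4 tissues with edgeR (0.524% of all genes did), and 21 had an unadjusted p under 0.05, against 13.9% of all genes; voom called 3 of 71 members (1.31% of all genes). The smallest adjusted p values were 0.0625 for Ndufa10, 0.0797 for Atp5b and 0.101 for Uqcr11. The diet effect in IWAT was above that in BAT for 65 of 71 members, above that in liver for 67 and above that in gastrocnemius for 63, with median log2 differences of 0.89, 1.07 and 0.99, beside 0.09, 0.02 and -0.01 over all genes. The 3 differences share the IWAT libraries and are not independent of each other. Between IWAT and BAT edgeR called 0 members (0.0517% of all genes; voom 1, with 0.288%), and between IWAT and liver 0 (0.591%; voom 1, with 1.07%). Between IWAT and gastrocnemius it called 1, Atp5b (0.436% of all genes; voom 4, with 1.09%), with a log2 difference of 1.67 ± 0.39 and an adjusted p of 0.0400. Atp5b in MR gastrocnemius had 4233, 3163, 9084, 3975 and 5139 CPM, against 4028, 5288 and 11244 CPM as lowest, median and highest in CON gastrocnemius. That call was lost with the animal as a replicate block (1.62 ± 0.39, adjusted p = 0.0801) and without the 4 libraries that stood apart (1.57 ± 0.42, adjusted p = 0.0522). Without those 4 libraries, a choice made after seeing the data, 3 members passed the test over the 4 tissues (Ndufa10, Uqcrc1 and Uqcrfs1, with 1.88% of all genes called), 2 passed between IWAT and BAT (Ndufa10 and Uqcrc1, 0.48%), 9 between IWAT and liver (1.72%) and 3 between IWAT and gastrocnemius (0.945%).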

How the data were processed

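The authors deposited raw tag counts per gene symbol and library, 1 table per tissue, and a normalized signal, made with DESeq per the submitters' processing notes. Dividing each count by 1 size factor per library gives that signal. The notes name mm10 and GRCm38.p1, and per the labels only uniquely mapped fragments of RefSeq genes were counted. Aligner and DESeq version: not given in the sources used here. Members, lists and named genes were chosen with earlier results of these data known. Each tissue was fitted alone with edgeR 4.0.16 (R 4.3.3; filterByExpr, TMM factors, quasi-likelihood test, Benjamini-Hochberg over all genes, threshold 0.05). The test gives no SE, so the SE of a log2 fold change was derived as its absolute value over the square root of the F statistic. This derived SE is unreliable where the fold change is near 0. Alternatives used limma 3.58.1, DESeq2 1.42.0, other scalings and filters, a pseudocount of 1 or 8 on the normalized signal, and single libraries left out. The joint model held tissue, diet and their interaction over 26583 shared symbols. Tissues pair by animal number; same-animal deviations correlated at -0.05 to 0.06 on average over 6 tissue pairs. Named members were those that passed, the smallest p of each complex and tissue, core subunits, isoforms and up to 4 genes per list; Uqcrc2, Ndufa10, Atp5e and Sdhc in IWAT were added after their values were seen. Values of 1 member are not reported here. No start window from chromosome 18 was shown. Counting error sets the floor of 3 tags.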

Additional observations from a re-analysis of the deposited data

Results flagged for a closer look

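In 120 sets of 5 or 6 libraries of 1 group tested for a library far from its group, 26 held one by Dixon's criterion, where chance gives about 1 in 20, and 17 of the 26 lay in the 4 libraries that stood apart. The cause was not tested for any of them.

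Among shares of all tags, IWAT MR3116 was highest for complex IV at 4.49%, and CON3114 was highest of the CON IWAT libraries for all members at 5.49%. In gastrocnemius, MR3101 was highest at 5.34% for complex IV and 9.55% for all members, and CON3106 was lowest of its group at 0.464% for complex III and 4.63% for all members.

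In IWAT, MR3116 was the highest MR library for Atp5a1 (10340.5 CPM), Cox5a (10647 CPM), Atp5g3 (3890 CPM), Sdha (3877 CPM) and Ndufs1 (30.8 CPM). It was the lowest for Cox7a2l (68.1 CPM), Uqcrfs1 (25.2 CPM) and Cox4i2 (0 CPM). MR3102 was the highest MR library for Cox6a2 at 7.53 CPM. Among CON libraries of IWAT, CON3114 was the highest for Cox8a (4439 CPM), Cox6a2 (30.9 CPM) and Ndufa4 (5.99 CPM), CON3106 for Atp5a1 (2514 CPM) and CON3103 for Sdhb (137 CPM). In liver, CON3103 was the highest CON library for Uqcrb at 198 CPM.

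In gastrocnemius, MR3101 was the highest MR library for Cox6c (27151 CPM), Atp5a1 (15651 CPM), Ndufv3 (2729 CPM), Sdha (2470.8 CPM) and Uqcrc2 (459 CPM).

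The diet effect on Atp5b differed between IWAT and gastrocnemius by 1.67 on the log2 scale in the joint model.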

How the results depend on the processing

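Members called in the single-tissue tests stayed at 0 under most alternatives. In IWAT they were 1 with libraries scaled by total tags (0.595% of all genes), 11 with DESeq2 and 15 with a term for the 3 libraries that stood apart (14 higher and Atp5g1 lower, 5.59% of all genes), and in liver 3 with DESeq2. The liver median became 0.0815 with total tags alone, a scaling that put the median of all genes at 0.19 in liver and -0.13 in IWAT. In the joint model, members called over the 4 tissues, against BAT, against liver and against gastrocnemius were 3, 1, 1 and 4 with voom, and 3, 2, 9 and 3 without the 4 libraries that stood apart; against gastrocnemius they were 0 with no filter and 0 without the 3 IWAT libraries. Cox4i2 in IWAT, 0.06 with all libraries, was -0.10 with total tags, -0.27 without the 3 libraries, -0.28 with the term, and -0.20 to 0.47 when 1 library at a time was left out. With the animal as a replicate block, 0 members were called over the 4 tissues, 0 against BAT, 0 against liver and 0 against gastrocnemius, where Atp5b had been called; no other call changed. Where no share of all genes stands beside a count of 0, that share is not given here and the 0 is not read further.

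Leaving out 1 library at a time gave medians of -0.08 to 0.06 in BAT, 0.80 to 1.06 in IWAT (highest without CON3114), -0.13 to -0.09 in liver and -0.26 to 0.01 in gastrocnemius (highest without MR3101), with 0 members called each time. Leaving out 1 animal gave 0 to 3 calls over the 4 tissues (3 without MR3116, where 6.18% of all genes were called), 0 to 1 against BAT, 0 to 1 against liver (1 without CON3114 for both, where 0.482% and 1.00% of all genes were) and 0 to 10 against gastrocnemius (10 without MR3116, or 14.1% of members where 13.7% of all genes were called; 3 without CON3114, 4.23% where 0.756% were; 1 without MR3104, where 0.491% were; and 0 without any of the other 9). Depth limits genes such as Atp5e, Cox6b1 and Ndufa4, with few tags per library, and no level is read from the 8 symbols at 0.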
